A study of Mus musculus with 8 samples.

Results

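The genes described here are the MYC network of transcription factors: Myc, its partner Max, the opposing factors Mxd1, Mxd3, Mxd4, Mxi1 and Mnt, the large MAX-binding protein gene Mga, and the MAX-like factor Mlx. Every probe set that the annotation ties to 1 of these 9 symbols was taken, whatever its value. That gave 23 of the 45037 probe sets tested and 9 of 18194 named genes. The RNA came from bone marrow-derived macrophages (BMDM) of wild-type C57BL/6J mice on 8 Affymetrix mouse arrays. All cells were grown from femur and tibia marrow in medium with 20% L929 cell supernatant, a source of macrophage colony stimulating factor, until day 7 of culture, and were then washed and replated without that supernatant. For the last 24 hours M0 macrophages (3 arrays) had media alone, M1 macrophages (3 arrays) had LPS (100 ng/ml) together with IFN-γ (20 ng/ml), and M2 macrophages (2 arrays) had IL-4 (20 ng/ml). Growth factor withdrawal was thus common to all groups. The mice's ages are not given in the sources used here. The labels describe the arrays of a condition as biological replicates from different mice, but the study's methods also speak of in vitro replicates, so every n is a number of arrays and a p-value measures only the spread between them.

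MYC binds DNA as a pair with MAX and raises the transcription of genes for ribosomes, nucleotides, amino acid uptake and cell division. MXD1, MXD3, MXD4, MXI1 and MNT also pair with MAX, bind the same short sequence, the E-box CACGTG, and bring in the SIN3 corepressor, so they oppose MYC at shared genes. MGA pairs with MAX within a Polycomb repressor complex, and MLX pairs with some MXD proteins, with MNT and with the glucose-sensing factors MLXIP (MondoA) and MLXIPL (ChREBP). Proliferating cells typically hold much MYC and differentiated cells more MXD protein, and in macrophages Myc is known as a gene that IL-4 can raise. MYC mRNA and protein are both short-lived.

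The deposited values are intensities on a linear scale, called units, and differences are of log2 intensity. Each gene is given by its brightest probe set, judged by mean log2 intensity. Differences were tested with limma in 1 fit of all 8 arrays, and a gene rose or fell where the Benjamini-Hochberg adjusted p over all 45037 probe sets was under 0.05, at any fold. Array medians lay between 38.9 and 40.4 units, and log2 intensities correlated at 0.994 to 0.997 between arrays of a condition and at 0.965 to 0.983 between conditions. All 8 macrophage markers looked up, Csf1r and Cd68 among them, were above the median on every array. Their summed intensity was 78570 to 81230 units in M0, 76000 to 77620 in M1 and 53160 to 56860 in M2. In M2, 5 of the 8 (Adgre1, Mertk, Lyz2, Fcgr1 and Cd14) fell and 0 rose, beside 6.43% and 8.03% of all named genes. In M1, 2 fell (Cd68 and Mertk) and 1 rose (Cd14), beside 11.5% and 13.7% of all named genes. Fibroblast markers summed to 144.8 to 173.7 units in M0, 204 to 342.8 in M1 and 162.6 to 263.3 in M2, with Dcn and Lum higher in M1, and no more than 2 of the 6 were above the median on all arrays of any group. Neutrophil, T cell, B cell, NK cell and mast cell markers summed to at most 250.5 units on any array per list, and the part of these shifts in the results was not tested.

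The E-box is shown here because it is the sequence through which members could act on one another's genes. RefSeq promoters (GRCm38.p6, 250 bases before to 50 after a transcript start) were matched for 8 of the 9 genes. CACGTG, which reads the same on both strands, stood in the promoters of 4 of these 8 (Max, Mnt, Mxd4 and Mlx), against 2187 of all 27025 genes with a promoter in that table (8.09%). It was not found in the windows of Mxd1, Mxd3, Mxi1 or Mga. In the 30 bases around each match, written 5′ to 3′ on the gene's strand, the capitals mark CACGTG:
Max (chr12:76962234-76962263, minus strand, motif 3 bases before the start): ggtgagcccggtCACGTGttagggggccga
Mnt (chr11:74830789-74830818, plus strand, 123 bases before the start): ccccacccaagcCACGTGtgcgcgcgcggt
Mxd4 (chr5:34187912-34187941, minus strand, 219 bases before the start): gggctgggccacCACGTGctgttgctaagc
Mlx (chr11:101087238-101087267, plus strand, 40 bases before the start): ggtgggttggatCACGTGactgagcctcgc
A match describes the letters only and shows no binding in these cells.

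Of the 9 genes, 3 rose (Mxd1, Mxi1 and Mlx) and 2 fell (Myc and Mxd4) in M1 against M0 macrophages, where 13.7% of all named genes rose and 11.5% fell. In M2 against M0 macrophages 2 rose (Myc and Mlx) and 1 fell (Mxd1), beside 8.03% and 6.43% of all named genes. Set directly against M2, M1 macrophages had more Mxd1 and Mlx and less Myc, Mxd4 and Mnt, beside 11.5% higher and 12.3% lower among all named genes. The median log2 difference of the 9 genes was -0.00 for M1 against M0, 0.30 for M2 against M0 and -0.03 for M1 against M2, beside 0.02, 0.01 and 0.00 over all named genes. The 3 comparisons share arrays, each condition entering a pair of them. In each comparison, members that rose stood beside members that fell.

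**Figure D1:**
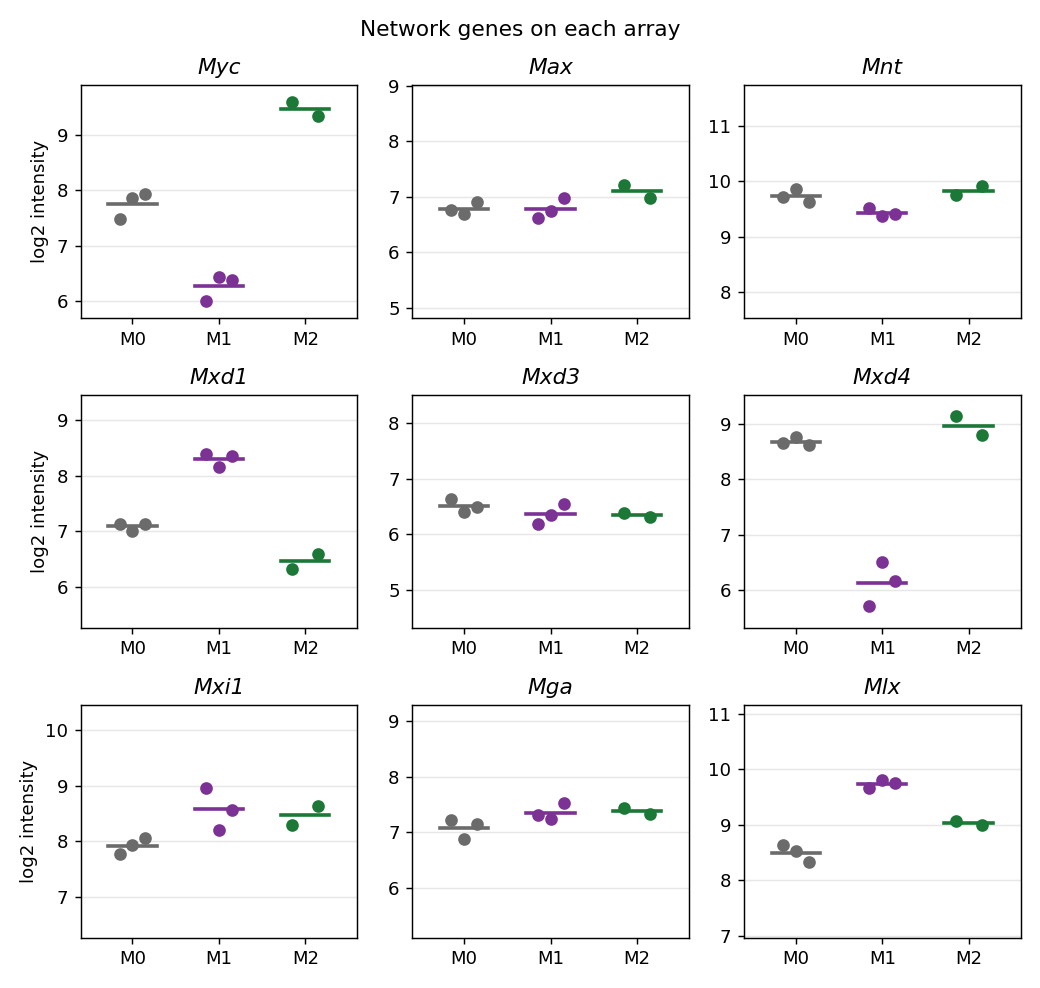
Log2 intensity of each network gene (brightest probe set) on every array, with M0 in grey, M1 in purple and M2 in green. Each point is an array, the bar is the mean of a condition, and panels have the same height on the log2 scale but different positions, so levels are not to be compared between genes. Myc, Mxd1 and Mlx form 3 separate groups of points, and Mxd4 is low on the 3 M1 arrays alone.

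Myc, the activator of the network, was read by a single probe set. M0 arrays read 178.8, 230.6 and 245.1 units, M1 arrays 63.9, 86.8 and 83.6, and M2 arrays 772 and 647.6. The 3 groups did not overlap, with M1 lowest and M2 highest. Myc fell by 1.48 (SE 0.15) on the log2 scale in M1 macrophages, with a limma adjusted p of 1.75e-05. It rose by 1.71 (SE 0.17) in M2 macrophages, with a limma adjusted p of 2.75e-05. The direct difference of M1 from M2 was -3.19 (SE 0.17), with a limma adjusted p of 4.9e-08, the widest span of group means of the 9 genes. The study also reported real-time PCR on independent datasets, with Myc higher in M2 and lower in M1 than in M0 macrophages. Those PCR values were not analysed here. The study singled out Myc as an M2 gene on these same arrays, so the limma tests above are not independent evidence for it. The rise in M2 did not pass under the methods' t-test, which compares only 3 with 2 arrays: its adjusted p was 0.0836 on log2 values, in a range of 8.7e-06 to 0.0836 over 21 alternatives. In RNA from a whole culture, fewer cells expressing a gene and less of its RNA per cell cannot be told apart.

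Max, the partner of MYC and a partner of the MXD proteins, MNT and MGA, did not pass in any comparison. Its intensity was 108.9, 103 and 120.2 units in M0, 98.5, 107.4 and 126.3 in M1, and 147.7 and 126.7 in M2. M0 and M1 arrays overlapped, whereas both M2 arrays were above all others, the nearer of them by under 1 unit. The M1 difference from M0 was -0.00 with a 95% interval of -0.26 to 0.26, and the M2 difference was 0.31 with an interval of 0.02 to 0.60 (limma adjusted p = 0.989 and 0.178). Max was read by this probe set alone.

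Mxd1 encodes MAD1, a MAX-bound repressor that rises as myeloid cells stop dividing. It was opposite to Myc in every comparison. The brightest of its 3 probe sets read 140.3, 128.1 and 140.7 units in M0, 337.4, 286.9 and 328.5 in M1, and 80.3 and 97 in M2. The groups did not overlap, and their order, M1 above M0 above M2, was the reverse of that of Myc. Mxd1 rose by 1.22 (SE 0.11) in M1 macrophages (limma adjusted p = 7.27e-06). It fell by 0.63 (SE 0.12) in M2 macrophages (limma adjusted p = 0.00531). All 3 probe sets rose in M1, the others by 1.54 and 0.67, and all 3 were higher in M1 than in M2. The fall in M2 was carried by the brightest alone, the others having differences of -0.47 and -0.24 (limma adjusted p = 0.111 and 0.353). Without M2 replicate 1 it was -0.49 with an adjusted p of 0.0688, in a range of 0.00358 to 0.134 over 21 alternatives. Together, the change of Myc minus that of Mxd1 was -2.70 on the log2 scale from M0 to M1 and 2.34 from M0 to M2.

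Mxd4 encodes MAD4, a repressor of the same family as MXD1, yet it moved the other way in M1 macrophages. Its brightest probe set read 401.9, 432.9 and 390.6 units in M0, 52.4, 90.8 and 71.7 in M1, and 561.1 and 444.5 in M2. The M1 arrays were far below all others, and the M2 arrays lay above M0, replicate 2 by a small margin. Mxd4 fell by 2.55 (SE 0.17) in M1 macrophages (limma adjusted p = 5.84e-07). The M2 difference from M0 was 0.29 with a 95% interval of -0.13 to 0.71 (limma adjusted p = 0.412), so the order was M1 below M0 and M2, which did not differ beyond their spread. The direct difference of M1 from M2 was -2.84 (SE 0.19), with a limma adjusted p of 4.36e-07 and one of 0.0642 by the methods' t-test, in a range of 1.63e-07 to 0.0642 over 21 alternatives. The next 2 probe sets fell in M1, with differences of -2.06 and -1.31, and the dimmest, below the median on every array, had a difference of -0.27 (limma adjusted p = 0.17). The estimates of the 4 probe sets lie further apart than the standard error of any of them.

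Mxi1, also called MXD2, a further repressor that pairs with MAX, rose in M1 macrophages. Its brightest probe set read 218.5, 245.7 and 266.6 units in M0, 496.1, 296.2 and 377.5 in M1, and 314.9 and 399.2 in M2. No stimulated array overlapped M0, while the M1 arrays spread from below to above the M2 arrays. Mxi1 rose by 0.65 (SE 0.17) in M1 (limma adjusted p = 0.0156). The M2 difference was 0.55 with a 95% interval of 0.13 to 0.96 (limma adjusted p = 0.0892), and M1 differed from M2 by 0.11 with an interval of -0.31 to 0.52. Without M1 replicate 1, the highest array, the M1 difference was 0.46 with an adjusted p of 0.0613, and without M0 replicate 1 it was 0.58 with 0.0627, in a range of 0.00277 to 0.232 over 21 alternatives. The other probe set had an M1 difference of 0.62 (limma adjusted p = 0.0562).

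Mnt, the most widely expressed of the repressors in textbook accounts, and Mxd3, known for its expression in dividing cells, had the smaller differences of the repressor genes. Mnt read 842.5, 925.7 and 793.6 units in M0, 736.2, 660.9 and 685.7 in M1, and 863.2 and 961.5 in M2. All M1 arrays were below all M0 and M2 arrays, which overlapped. Mnt was lower in M1 than in M2 by 0.39 on the log2 scale (95% interval of the difference -0.64 to -0.14, limma adjusted p = 0.0303), and its M1 difference from M0 was -0.30 with an adjusted p of 0.0626. These values are of the brighter probe set. The dimmer, below the array median on every array, had an M1 difference from M2 of -0.02 (limma adjusted p = 0.949). The mean of Mnt's probe sets gave -0.21 (limma adjusted p = 0.136). Without M2 replicate 2 the difference from M2 was -0.32. Over 21 alternatives the adjusted p was 0.0153 at its lowest and was under 0.05 in 11. Those 11 include the stricter limits of 0.01 and of 2-fold, which the call did not pass. By the methods' t-test the adjusted p was 0.138 on log2 and 0.148 on linear values. Mxd3 ranged from 73 to 99.9 units over all arrays with no order between the groups that exceeded their spread. Its M1 difference from M0 had a 95% interval of -0.40 to 0.10 and its M2 difference one of -0.44 to 0.12.

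Mga encodes a large scaffold with both a T-box and a MAX-binding domain, and none of its 5 probe sets passed in any comparison. The brightest read 148.5, 117.4 and 141.9 units in M0, 157.9, 150.5 and 184.5 in M1, and 172.9 and 161 in M2. All stimulated arrays were above the M0 arrays, by a margin of 2 units at the narrowest, and M1 and M2 overlapped. The differences from M0 were 0.28 in M1 (95% interval 0.01 to 0.54, limma adjusted p = 0.144) and 0.30 in M2 (95% interval 0.01 to 0.59, limma adjusted p = 0.189). The next brightest probe set had an M2 difference of -0.06, so the direction in M2 depended on the probe set.

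Mlx, which pairs with MXD1, MXD4 and MNT as well as with the Mondo proteins, rose with both stimuli and most with LPS and IFN-γ. Its brightest probe set read 395.6, 368 and 320.6 units in M0, 807, 894.9 and 858.1 in M1, and 536.4 and 512 in M2. The groups did not overlap, and M2 lay between M0 and M1. Mlx rose by 1.24 (SE 0.11) in M1 (limma adjusted p = 4.21e-06) and by 0.54 (SE 0.12) in M2 (limma adjusted p = 0.00975), and M1 exceeded M2 by 0.70 (SE 0.12). The second probe set rose by 1.61 and 0.62 and passed in all 3 comparisons. Without M2 replicate 1 the M2 rise of the brightest was 0.51 with an adjusted p of 0.0716, in a range of 0.00137 to 0.159 over 21 alternatives.

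**Figure D2:**
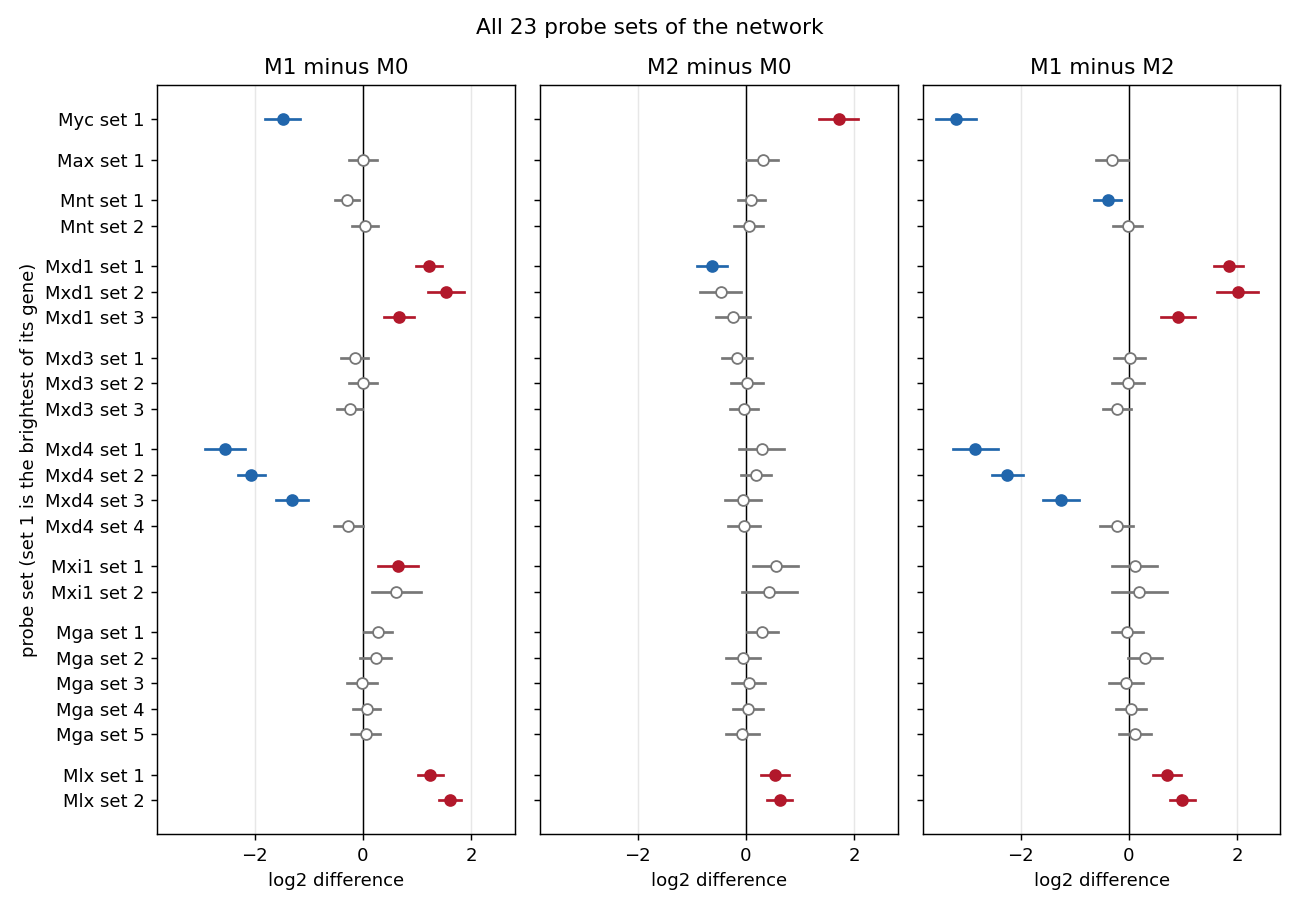
Log2 difference of all 23 probe sets of the network in the 3 comparisons, with set 1 the brightest of its gene. Points are limma estimates, lines are 95% intervals, filled red and blue points passed as higher or lower, and open points did not pass. All 3 sets of Mxd1 and both of Mlx lie to the right of 0 in M1 minus M0, and 3 of 4 sets of Mxd4 lie far to the left.

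Over the 23 probe sets, 6 rose and 4 fell in M1 against M0 (10.2% of all probe sets in either direction), 3 rose and 1 fell in M2 against M0 (6.32% and 5.85%), and 5 were higher and 5 lower in M1 than in M2 (8.87% and 10.1%). A probe set of Mnt, 1 of Mxd3, 1 of Mxd4 and 2 of Mga were below the array median on all 8 arrays, and none of these 5 passed. Separation of the arrays was more common than a call. In M1 against M0, 4 genes had all M1 arrays above and 3 all below (21.8% and 18.5% of all named genes). In M2 against M0, 6 genes lay above and 2 below (24.2% and 19.6%), and in M1 against M2, 2 above and 4 below (23% and 23.3%). Separation of so few arrays was thus common among all genes.

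Likeness of profile was the root mean square difference over the 8 arrays, after centring each gene on the mean of its group means. Among 1829 genes whose group means spanned at least 1 in log2, the vacuolar proton pump subunit Atp6v0a1 was nearest to Myc, at 0.175. It read 1373 ± 81 units (SD, n = 3) in M0, 436.6 ± 49.4 (n = 3) in M1 and 3757 ± 231.8 (n = 2) in M2. Chst7, a sulfotransferase, followed at 0.188, then Il6st, the gp130 chain of the IL-6 receptor, at 0.259, Tfec, a factor of the MiT family, at 0.267, and Tanc2, a scaffold protein, at 0.272. All 5 were lowest in M1 and highest in M2 like Myc. The nearest to Mxd4, the member with the next widest span, were Timp2, an inhibitor of matrix metalloproteinases, at 0.173, the iron regulator Hfe at 0.196, the endocytic adaptor Hip1 at 0.203, brain-type creatine kinase Ckb at 0.205 and the anticoagulant Pros1 at 0.231. They were low in M1 and did not pass between M2 and M0. These genes were picked for their profiles over the same arrays, so the values are descriptions.

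**Figure D3:**
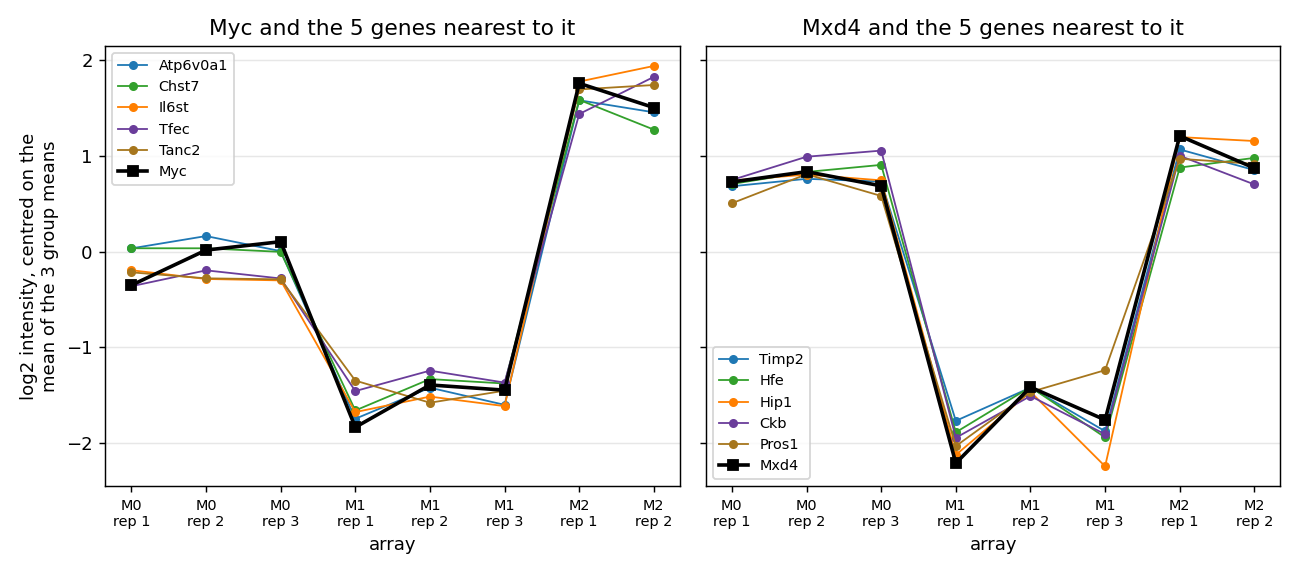
Log2 intensity on each of the 8 arrays, centred on the mean of the 3 group means, for Myc (left) and Mxd4 (right) in black squares and the 5 genes nearest to each in colour. Lines join arrays only to guide the eye, since replicates have no order. Myc and its neighbours step down in M1 and up in M2, and Mxd4 and its neighbours step down in M1 alone.

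The other factors of the MYC and MLX families came next. Among all named genes 13.7% rose and 11.5% fell in M1, and 8.03% rose and 6.43% fell in M2. Against M2, 11.5% were higher and 12.3% lower in M1. In lists of 4 genes, counts of 0 or 1 cannot be set apart from such shares. Of Mycn, Mycl, Mlxip and Mlxipl, none passed in M1 or M2 against M0 (limma; at an unadjusted p under 0.05, 1 higher and 1 lower in M1 and 1 higher in M2; the methods' t-test also passed none). Mlxip, the MondoA gene, was lower in M1 than in M2 by 0.48 on the log2 scale, at 303.2 against 421.7 units (difference -0.48, SE 0.12, limma adjusted p = 0.0121). That call was lost without M2 replicate 2 and by the methods' t-test on either scale. Mycl and Mlxipl were at or below 40.8 units on every array, near or under the array median. Among 4 genes known as targets of Mondo and MLX, Arrdc4, an arrestin-domain protein that limits glucose uptake, rose by 0.91 in M1 and 0.60 in M2, and 3 did not pass. The M2 call of Arrdc4 was lost without M2 replicate 2 and by the methods' t-test, whereas its M1 call held in each of these. Its close relative Txnip, the best known target of this pair, had differences of -0.40 and -0.31 (limma adjusted p = 0.0598 and 0.246).

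Genes for partners of MYC were read beside the shares of all named genes, 13.7% higher and 11.5% lower in M1 and 8.03% and 6.43% in M2. Of 14 coactivators and partners, 1 rose and 3 fell in M1, and 2 rose and 0 fell in M2, with medians of -0.17 and 0.09. In M1 macrophages Ccnt1, the cyclin of the elongation factor P-TEFb, rose by 0.69, while its kinase Cdk9 fell by 0.34, Bin1, a MYC-binding protein that restrains it, fell by 0.74, and the acetyltransferase Kat2a fell by 0.48. In M2 macrophages the paired helicases Ruvbl1 and Ruvbl2 rose by 0.58 and 0.57. Leaving out either M0 replicate 1 or M1 replicate 1 left 1 lower gene in M1, and the M2 count of higher genes was 1 without M0 replicate 2 or 3 or without either M2 array. By the methods' t-test 0 passed in M2, with 5 higher and 1 lower at an unadjusted p under 0.05. Of 14 genes for the turnover of MYC protein, 1 rose and 2 fell in M1, and 1 rose and 0 fell in M2. Aurka, the mitotic kinase that can shield MYC proteins from degradation, fell by 2.15 in M1, from 188.6 to 41.8 units, and Skp2, a ubiquitin ligase subunit for MYC, fell by 0.76. Btrc, another ligase subunit, had differences of 0.30 in M1 and 0.42 in M2 that passed in limma. Its M1 call was lost without any 1 of the M0 or M1 arrays, its M2 call without M0 replicate 2 or 3 or either M2 array, and both by the methods' t-test. The kinase Gsk3b, which marks MYC for degradation, was lower in M1 than in M2 with a difference of -0.45.

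Corepressor genes, through which the MXD proteins act, came next. Among 11 subunits of the SIN3 complex, 3 rose and 2 fell in M1, and 2 rose and 1 fell in M2, with medians of 0.11 and -0.02. Among all named genes 13.7% rose and 11.5% fell in M1, and 8.03% rose and 6.43% fell in M2. Sin3a, the scaffold that MXD proteins bind, rose by 0.43 in M1 and 0.44 in M2, and Sin3b rose by 0.35 in M1. The deacetylase Hdac2 rose by 0.53 in M2, the stabilising subunit Sap30 fell by 0.52 in M2, and the histone-binding subunit Rbbp7 fell by 0.42 in M1. These few calls depended on single arrays. In M1 the higher count was 1 without M0 replicate 2 or 3 or M1 replicate 3, and the lower count was 0 without M0 replicate 3 or M1 replicate 1 or 3 and 1 without any other array but M1 replicate 2. In M2 the higher count was 0 without M2 replicate 1 and 1 without M0 replicate 2 or 3 or M2 replicate 2, and the lower count was 0 without M0 replicate 3 or M2 replicate 2. The methods' t-test passed 0 of the 11 in M1 or M2, with 3 higher and 2 lower in M1 and 2 higher and 1 lower in M2 at an unadjusted p under 0.05. In the Polycomb complex of MGA, 1 of 9 subunits rose in M1 and none passed in M2 (limma; 3 at an unadjusted p under 0.05, and 0 by the methods' t-test even unadjusted). The gene that rose was Yaf2, at 0.74, and 1 of 9 is near the 13.7% of all named genes that rose in M1. Tfdp1, E2f6 and Wdr5 were lower in M1 than in M2, with differences of -0.60, -0.45 and -0.40. That count of 3, beside 12.3% lower among all named genes, was 1 without M1 replicate 1 or M2 replicate 1. By the methods' t-test on log2 values 0 were lower, with 2 at an unadjusted p under 0.05.

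Genes known from textbooks as activated by MYC were counted in 3 lists, which were chosen with earlier results of these data known and are described without a list test. In M2, where 8.03% of all named genes rose and 6.43% fell, 23 of 25 genes of the ribosome production list rose and none fell. The list's median was 0.73. Npm1 and Noc4l, at 0.19 and 0.41, were the 2 that did not pass. Nop58, a core protein of box C/D particles that methylate ribosomal RNA, rose by 1.74 (SE 0.14), from 84.8 to 286 units. Dkc1, the pseudouridine synthase, rose by 1.45, and Rrs1, a 60S assembly factor, by 1.19. In M1 macrophages, where Myc was lower, 3 rose, 1 fell and 21 did not pass, with a median of 0.08. Neither count was above its share of all named genes, 13.7% higher and 11.5% lower in M1. Ubtf, a factor of RNA polymerase I, was the 1 that fell, by 0.39. Rcl1, a cleavage factor of the small subunit, rose by 3.02 (SE 0.15) in M1, from 115.7 to 944.1 units. It was the only gene of the list higher in M1 than in M2, and 18 were lower, beside 11.5% and 12.3% of all named genes. The M2 count was 15 without M0 replicate 2 and 14 without M2 replicate 1. It was 0 by the methods' t-test on log2 values, by which 24 of the 25 were higher at an unadjusted p under 0.05.

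The list of metabolism and growth holds enzymes, transporters and translation factors. In M2, 17 of 24 genes rose and none fell, with a median of 0.65, beside 8.03% higher and 6.43% lower among all named genes. In M1, 7 rose and 2 fell, with a median of -0.01, beside 13.7% higher and 11.5% lower among all named genes. The other 15 did not pass in M1. Tfrc, the transferrin receptor for iron uptake, rose by 2.30 (SE 0.15) in M2, from 741.8 to 3632 units, and its M1 difference was 0.13. Slc7a5, a transporter of large neutral amino acids, rose by 1.38 in M2, and Shmt2, the mitochondrial serine hydroxymethyltransferase, by 1.06. The glucose transporter Slc2a1 rose in both, by 1.52 in M1 and 1.19 in M2. Paics and Nme1, enzymes of purine and nucleotide synthesis, fell in M1 by 0.34 and 0.54. Against M2, 14 genes were lower in M1 and none was higher in limma, beside 12.3% and 11.5% of all named genes. In limma 2 were higher at an unadjusted p under 0.05, and the methods' t-test passed 0 as higher. By the methods' t-test on log2 values 0 genes passed in M2 against M0, 18 of 24 being higher at an unadjusted p under 0.05.

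In the cell cycle list the calls against M0 came in M1, with a median of -0.98. There 10 of 15 genes fell and 2 rose, beside 11.5% and 13.7% of all named genes. In M2, where Myc was highest, none of the 15 passed in limma, beside 8.03% higher and 6.43% lower among all named genes. At an unadjusted p under 0.05 limma had 1 higher and 1 lower in M2. The methods' t-test passed 0 there, and the median was -0.10. Rrm2, a subunit of ribonucleotide reductase, fell by 3.70 in M1, from 555.7 to 41.4 units, cyclin A2 (Ccna2) fell by 3.46, and the replication helicase subunits Mcm5 and Mcm7 had differences of -3.21 and -2.68. The M1 level of Rrm2, like that of Aurka, lay near the array median, which leaves the size of these falls uncertain. Tyms, counted among the genes that did not pass, was below the median on every array, at 10.4 to 14.6 units. Ccnd2, cyclin D2, rose by 1.12 and the phosphatase Cdc25a by 0.45 in M1, and E2f1 was higher in M1 than in M2 by 0.51. Cdk4, a kinase gene with E-boxes known to respond to MYC, fell by 0.41 in M1, and its M2 difference was 0.32 with an adjusted p of 0.125 from limma.

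**Figure D4:**
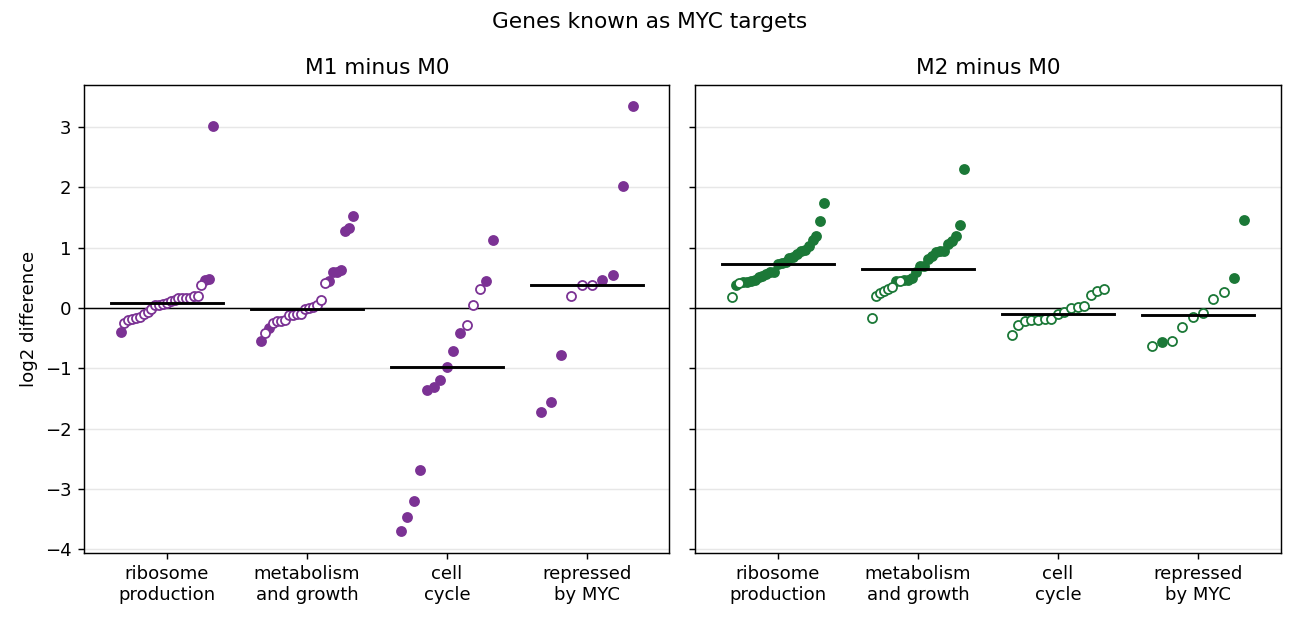
Log2 differences of single genes in 4 lists of known MYC targets, for M1 minus M0 (left, purple) and M2 minus M0 (right, green). Each point is a gene at its brightest probe set, filled where limma passed it, and the bar is the list's median. The medians of the lists of ribosome production and of metabolism are 0.73 and 0.65 in M2, where Shmt1 of the metabolism list lies below 0 at -0.17, and the cell cycle list reaches -3.70 in M1.

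E-boxes stood in the promoters of 5 of 20 matched genes of ribosome production (25%), 8 of 21 of metabolism and growth (38.1%) and 2 of 12 of the cell cycle (16.7%), against 8.09% of all genes. Windows of 3 of them, picked after their values were seen, are shown with CACGTG in capitals. Nop2, a ribosomal RNA methyltransferase, rose by 0.60 in M2. Apex1, a DNA repair nuclease, rose by 1.11 in M2 and holds 3 copies, of which the first is shown. For Cdk4 the stretch that holds 4 copies is given.
Nop2 (chr6:125131811-125131840, plus strand, motif 60 bases before the start): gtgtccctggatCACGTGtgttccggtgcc
Apex1 (chr14:50924913-50924942, plus strand, 24 bases before the start): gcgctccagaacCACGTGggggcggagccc
Cdk4 (chr10:127063351-127063534, plus strand, first copy 172 bases before the start): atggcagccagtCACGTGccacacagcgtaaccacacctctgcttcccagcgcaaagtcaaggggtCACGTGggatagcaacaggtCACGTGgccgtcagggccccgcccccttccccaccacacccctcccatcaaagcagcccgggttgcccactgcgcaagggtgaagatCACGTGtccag
Nop58, Dkc1, Tfrc and Slc2a1 had no CACGTG in the windows searched, which says only that these letters are not there.

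Of 10 genes known as repressed by MYC, 4 rose and 3 fell in M1, and 2 rose and 1 fell in M2, with medians of 0.38 and -0.12, beside 13.7% higher and 11.5% lower among all named genes in M1 and 8.03% and 6.43% in M2. The M2 counts were 1 to 2 higher and 0 to 1 lower when 1 array was left out, 1 higher without any M0 or M2 array or M1 replicate 2, and 0 lower without M0 replicate 1 or 3, M1 replicate 3 or either M2 array. By the methods' t-test on log2 values 0 passed in M2, with 2 higher and 1 lower at an unadjusted p under 0.05. Thbs1, thrombospondin 1, rose by 3.34 (SE 0.40) in M1, from 889 to 8185 units, with M0 arrays at 526.1 to 1596, and Gadd45b, a stress-response gene, by 2.03. Ndrg1 fell by 1.72 and the CDK inhibitor Cdkn2c fell by 1.55 in M1. Cdkn2b, the p15 inhibitor that MYC holds down through MIZ1, rose in both, by 0.55 in M1 and 1.46 in M2, the latter beside higher Myc. Cdkn1b, the p27 inhibitor, had an M2 difference of -0.62 (limma adjusted p = 0.0537) and was higher in M1 than in M2 by 1.00.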

How the data were processed

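Total RNA of 8 cultures (M0 3, M1 3, M2 2) was hybridised to Affymetrix mouse arrays. The deposited values are intensity values on a linear scale, for which the authors ran RMA through GenePattern's Expression File Creator (versions not given in the sources used here). RMA makes the arrays' distributions alike, so a change in the total mRNA of a cell would not show. No raw images were analysed here.

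From these values the log2 was taken and 64 control probe sets of 45101 were left out. limma 3.58.1 in R 4.3.3 (lmFit, eBayes) fitted the other 45037 in 1 model with 1 mean for each condition, with 5 residual and 6.95 prior degrees of freedom. Tests were two-sided, with Benjamini-Hochberg adjustment over all 45037 probe sets. Precision is limited by the small number of arrays, M2 having 2.

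GEO's platform annotation, with symbols updated by gene ID, gave 34945 probe sets 1 symbol, 932 several and 9160 none here. The brightest probe set stands for a gene. The members and lists were chosen with earlier results of these data known. Apart from the members and markers, 138 list entries were looked up. Named are all members, from each list up to 4 genes with the largest passing differences and up to 3 that moved against its majority, and 5 genes nearest to Myc and Mxd4. Other genes named, such as Npm1, Noc4l, Ubtf, Paics, Nme1, Nop2, Apex1, Cdk4, Txnip and Cdkn1b, were chosen after their values were seen.

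Alternatives were the methods' unpaired t-test on log2 or linear values, a fit restricted to the compared groups, robust variances with an intensity trend, the replicate number as a block, centring on array medians, quantile normalization once more, intensities raised to at least 64 units, only probe sets with a mean over 64 units, an adjusted p under 0.01, a limit of 2-fold, the mean or the widest-ranging probe set of a gene, and each array left out. Plots were made in Python 3.11.15 with matplotlib 3.10.9.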

Additional observations from a re-analysis of the deposited data

How the results depend on the processing

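Of 567 log2 differences of the 9 network genes under 21 alternatives, 504 kept their direction and their side of the threshold, 38 no longer passed, 6 newly passed and 19 changed sign. The sign changes were all in differences that had not passed. Max in M1 against M0 became 0.0009 from linear means, 0.0256 with median centring, 0.0089 with quantile normalization, and 0.0571, 0.0767 and 0.0142 without M0 replicate 3, M1 replicate 1 and M1 replicate 2. Mxd3 in M1 against M2 became -0.0308 with the replicate block, -0.072 as a mean of probe sets, -0.2151 at the widest-ranging one, and -0.0805 and -0.0254 without M1 replicate 3 and M2 replicate 2. Mxi1 in M1 against M2 became -0.0844 and -0.0657 without M1 replicate 1 and M2 replicate 1. Mga in M2 against M0 became -0.0603 at the widest-ranging probe set, and in M1 against M2 it became 0.0054 with quantile normalization, 0.0698 as a mean, 0.294 at the widest-ranging probe set, and 0.0329 and 0.0237 without M1 replicate 2 and M2 replicate 1. Leaving out 1 array gave ranges of -0.1025 to 0.0767 for Max, -0.0805 to 0.0958 for Mxd3, -0.0844 to 0.2877 for Mxi1 and -0.1141 to 0.0329 for Mga in these comparisons. The cause of these shifts was not tested.

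The methods' t-test uses only the arrays compared and passed fewer genes. For the network genes it passed 0 higher and 0 lower in M2 against M0 on either scale (at an unadjusted p under 0.05, 3 higher and 1 lower with log2 values and 2 higher and 1 lower with linear ones), and in M1 against M2 0 higher on linear values and 1 lower on either scale. Over the network probe sets it passed 3 higher in M1 against M0 on linear values, 0 higher and 0 lower in M2 against M0, and in M1 against M2 3 and 1 higher and 2 and 1 lower on log2 and linear values. For ribosome production, on log2 and linear values, it passed 0 and 1 higher in M2 against M0, 0 and 0 higher and 2 and 2 lower in M1 against M2, and 0 lower in M1 against M0 on linear values. For metabolism and growth it passed 0 and 2 higher in M2, 0 and 0 lower in M1 against M0, and 4 and 4 lower in M1 against M2. For the cell cycle it passed 5 lower in M1 against M0 on linear values, and 1 and 1 higher and 2 and 0 lower in M1 against M2.

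With a limit of 2-fold, the network genes had 1 higher and 0 lower in M2 against M0 and 1 higher in M1 against M2, and the probe sets 1 higher, 0 lower and 2 higher in the same order. Ribosome production had 1 higher and 0 lower in M1, 5 higher in M2 and 5 lower in M1 against M2, metabolism and growth 3 higher and 0 lower in M1, 5 higher in M2 and 5 lower in M1 against M2, and the cell cycle 1 higher in M1, and 1 higher and 7 lower in M1 against M2. With a lower limit of 64 units, M2 against M0 gave 1 higher and 0 lower network genes, 0 lower network probe sets, 15 higher of ribosome production and 7 higher of metabolism, which had 0 lower in M1. An adjusted p under 0.01 gave 15 higher of ribosome production in M2 and 0 lower of either list in M1. A fit of only the groups compared gave 2 lower network probe sets in M2. With the widest-ranging probe set 0 network genes were lower in M2, 3 ribosome genes were lower in M1 and 4 metabolism genes were, as with the mean of probe sets (4). Metabolism genes lower in M1 numbered 1 with median centring, and those higher in M1 than M2 numbered 1 with an intensity trend, with the limit on the mean and with the mean of probe sets.

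Without each array in turn, M2 against M0 gave 1 to 3 network genes higher (1 without M2 replicate 1) and 0 to 1 lower, 0 to 2 probe sets lower, and 14 to 23 genes of ribosome production higher, and M1 against M0 gave 0 to 1 of ribosome production and 0 to 2 of metabolism lower. Same-numbered arrays correlated in their deviations at -0.172 to 0.0547 over 7 pairs and others at -0.15 to 0.19 over 14, and 1 of 8 arrays correlated best with its own number, so the numbers were not used as pairs. With the replicate block 1 metabolism gene fell in M1, Mnt in M1 against M2 had an adjusted p of 0.0916, and over all probe sets 2363 rose and 2435 fell in M2 against M0, beside 2848 and 2635 without it. The 2 M2 arrays limit every comparison with M2.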
